A study of Mus musculus with 12 samples.

Results

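The 41 genes described here mark the cells of brain blood vessels: endothelial cells, which line the vessel, pericytes, which wrap capillaries, and the smooth muscle cells of arterioles. They were taken by gene symbol from a table of 43280 gene rows. All 41 were found and all had more than the required 10 counts summed over the 12 libraries. The smallest total was 33 counts, for Anpep, so no member lay near that limit. Of the 41, 39 passed the count filter of the test, which kept 13104 genes in all. Tagln and Anpep did not pass it.

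The libraries came from the hypothalamus of 12 male C57/Bl6 mouse pups on postnatal day (P) 6, of which 6 were controls and 6 underwent modified maternal separation (MMS). The MMS procedure combined daily separation from the dam with repeated handling that kept the pups on their backs, and tissue was taken once the final session had ended. Controls did not undergo MMS. The males of each litter were split between control and MMS. Which litter a library came from is not in the labels. Each pup gave 1 library made from the 3' end of mRNA, so reads do not scale with transcript length, and levels as library-scaled counts (CPM, in which each count is divided by the scaled library total) can be set side by side between genes. No sort of cells preceded the extraction. Fewer vessel cells and less RNA per vessel cell therefore cannot be told apart.

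Brain endothelial cells are joined by tight junctions and carry a set of transporters that together form the blood-brain barrier. The barrier forms before birth under Wnt signals from neural cells and is held by pericytes. Vessels grow through the first weeks after birth in mice under vascular endothelial growth factor (VEGF), the angiopoietins and Notch signals. In a few places of the hypothalamus, such as the median eminence, the vessels stay leaky, and their endothelium carries the diaphragm protein Plvap.

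Total counts ran from 3218777 to 6560620 per library. The 10 neuropeptides taken as markers of hypothalamus had a summed level of 971 to 1971 CPM in controls and 1360 to 1808 CPM in the MMS group. Single markers differed more than the sum. Agrp was at 0 CPM in MMS 2 and 0.71 CPM in MMS 4, against 2.72 to 34.3 CPM in controls. Pomc was at 8.06 and 3.19 CPM in those libraries, against 11.8 to 41.7 CPM in controls. Pmch went the other way, at 635 and 929 CPM against 195 to 500 CPM in controls. What lies behind these differences was not tested. Between 40 and 41 of the vessel genes had at least 1 count in each library, and together they took 0.0924% to 0.139% of the counts. Among markers of other cells, Ttr, the transthyretin of choroid plexus, measured 1735 CPM in control 3 and 1.09 to 35.5 CPM in the other 11 libraries. Markers of ependymal cilia were lowest in MMS 2 and MMS 4, with summed levels of 15.3 and 28.6 CPM. Their sums ran from 15.3 to 144 CPM in MMS and from 64.3 to 152 CPM in controls, and 0 of the 6 tested were higher in MMS. Meningeal fibroblast markers ran from 96.3 to 500 CPM in MMS and from 219 to 443 CPM in controls, with 6 of 7 lower. Red blood cell markers ran from 616 to 1500 CPM in MMS and from 851 to 1536 CPM in controls, with 5 of 5 lower. The part of these cells in the results below was not tested. Among all genes tested, MMS 2 was the highest of the 12 libraries for 15.5% and the lowest for 16.7%, and MMS 4 for 14% and 12.5%, so results were also computed without these libraries.

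The promoters of 4 members are shown here because they belong to genes on which the results below turn, or hold a sequence motif that was searched. Of the 41 members, 25 had promoter windows in the RefSeq set (GRCm38.p6), 33 windows in all. Each sequence is upstream of a start site, 5' to 3' on the strand of the gene, with bases in GENCODE exons left off. Cldn5 is at chr16:18776597-18776846 (plus strand), Erg at chr16:95459349-95459598 (minus strand, 1 of its 3 windows, which lies inside the gene), Kdr at chr5:75978459-75978705 (minus strand) and Myl9 at chr2:156775214-156775419 (plus strand). Capitals mark matches to the motifs named after the sequences.
Cldn5: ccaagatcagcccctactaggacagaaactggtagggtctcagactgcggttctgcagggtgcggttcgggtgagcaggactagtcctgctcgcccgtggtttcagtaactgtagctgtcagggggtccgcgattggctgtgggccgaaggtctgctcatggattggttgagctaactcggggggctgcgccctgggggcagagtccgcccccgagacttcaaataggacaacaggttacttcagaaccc
Erg: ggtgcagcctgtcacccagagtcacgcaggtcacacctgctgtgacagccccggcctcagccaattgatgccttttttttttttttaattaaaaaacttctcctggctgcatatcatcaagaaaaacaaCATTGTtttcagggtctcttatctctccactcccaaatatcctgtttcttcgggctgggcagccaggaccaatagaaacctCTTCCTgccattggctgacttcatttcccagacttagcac
Kdr: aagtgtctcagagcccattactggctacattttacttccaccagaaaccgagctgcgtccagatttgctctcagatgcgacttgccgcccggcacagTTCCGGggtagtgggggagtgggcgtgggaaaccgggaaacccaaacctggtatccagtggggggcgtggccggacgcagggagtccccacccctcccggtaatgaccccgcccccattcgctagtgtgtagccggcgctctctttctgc
Myl9: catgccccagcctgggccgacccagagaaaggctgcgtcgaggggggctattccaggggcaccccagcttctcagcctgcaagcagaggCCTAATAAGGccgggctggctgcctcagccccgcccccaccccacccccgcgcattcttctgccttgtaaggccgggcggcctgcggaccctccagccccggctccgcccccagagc

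The motifs were searched on both strands in the 250 bases before each start site. Bases in exons were included, and each window of a gene was counted separately. AGGAAG, a core bound by ETS factors such as Erg, Fli1 and Ets1, was found in 14 of the 33 member windows (42.4%) and in 29.5% of all 32851 windows. The members with it were Abcb1a, Abcg2, Egfl7, Emcn, Eng, Erg, Flt1, Itm2a, Ly6c1, Slco1a4 and Tie1. Matches of Egfl7, Erg and Ly6c1, and some of Abcg2, lay inside the GENCODE gene. The Abcb1a window ended at base 8567090 of chromosome 5, while its GENCODE gene began at 8660077. The other ETS core, CCGGAA, was in 2 member windows (6.06%), those of Kdr and Ocln, and in 12% of all. ACAATG, a core bound by SOX factors, was in 3 member windows (9.09%) and in 10.7% of all. The CArG box, bound by serum response factor in smooth muscle genes, was in the window of Myl9 only (3.03% of member windows against 1.47% of all). None of the motifs was in the Cldn5 window. A match is a description of these letters and not evidence of binding, and reads from the 3' end do not tell which of several start sites a transcript used.

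The comparison of MMS with control asked which vessel genes differed. None of the 39 tested members passed an adjusted p of 0.05 in edgeR, and 0 of the 13104 genes did (0%). The lowest adjusted p among members was 0.385, for Cldn5. At an unadjusted p under 0.05 there were 3 members, Erg higher and Cldn5 and Sox18 lower in MMS, which is 7.69% of those tested, where the share over all genes was 9.08% (4.68% higher, 4.4% lower). An absolute log2 fold change over 0.5 was measured for 4 members, Cldn5, Sox18, Erg and Emcn, where 6.08% of all genes had one. Of the 39, 23 (59.0%) had a log2 fold change below 0 and 16 above it, where 49.9% of all genes were below. The median log2 fold change of the members was -0.036, against 0.00091 over all genes. The groups overlapped for every member, and 0.389% of all genes had no overlap.

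These counts depended on single libraries. The number higher at an unadjusted p under 0.05 was 0 without control 1, MMS 1 or MMS 2, 2 without control 5 or MMS 4, and 3 without control 3 or MMS 5. The number lower was 1 without control 5, 4 without MMS 1 or MMS 5, and 5 without MMS 6. In the remaining fits the number lower was not always that found with all libraries. The median became -0.11 without MMS 1 and 0.056 without MMS 5. The number over all genes at that edgeR p, in either direction, moved as well, from 1190 of 13104 with all libraries. It was 1804 of 13230 without MMS 5, 1570 of 13294 without MMS 6 and 1509 of 13260 without MMS 1. Without MMS 2 it was 700 of 13271, and without MMS 4 it was 707 of 13220. Leaving out control 1, 3 or 5 gave 997 of 13202, 898 of 13193 and 1027 of 13232.

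**Figure D1:**
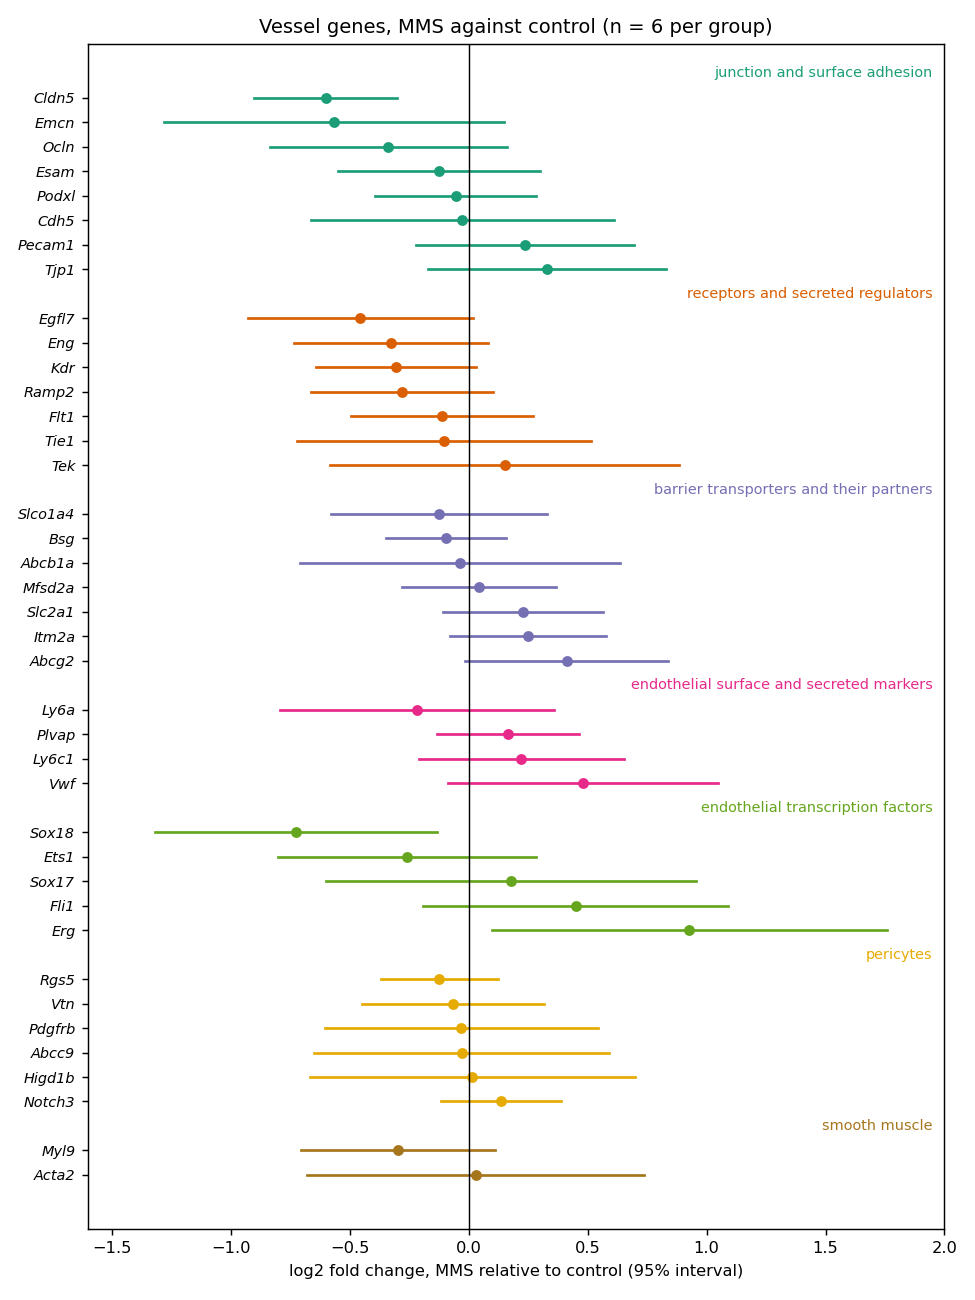
Log2 fold change of MMS relative to control for the 39 tested vessel genes (points) with 95% intervals from edgeR (lines), in blocks by role, n = 6 libraries per group. The interval lies below 0 for Cldn5 and Sox18 and above 0 for Erg, and crosses 0 for the other 36 genes; no gene passed the adjusted threshold.

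Among junction and surface adhesion genes, 6 of 8 had a log2 fold change below 0 and 1 was at an unadjusted p under 0.05. That gene was Cldn5 (chromosome 16, 18776847 to 18778262, plus strand, mm10), which encodes claudin-5, the main sealing protein of endothelial tight junctions in brain. Its levels in controls ran from 37.8 to 49.0 CPM with a median of 45.1, and in MMS pups from 22.0 to 38.9 CPM with a median of 28.3. The lowest were MMS 2 at 22.0 and MMS 3 at 22.4 CPM, and MMS 1 at 38.9 CPM was the only MMS library inside the control range, so 5 of 6 MMS libraries lay below all controls. The means were 44.0 ± 4.61 and 29.1 ± 6.66 CPM (SD, n = 6 per group), a ratio of 0.66. In MMS relative to control the log2 fold change stood at -0.60 (SE 0.15, 95% interval -0.90 to -0.30; edgeR, adjusted p = 0.385). On leaving out 1 library it ran from -0.69 to -0.53, with adjusted p-values of 0.215 to 0.821 in edgeR, and it was -0.51 without both MMS 2 and MMS 4. DESeq2 gave an adjusted p of 0.0590 for it. Between 74 and 297 counts per library stood behind these values.

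Esam, an adhesion molecule of endothelial tight junctions, was the second most abundant gene of the group. It ran from 21.5 to 29.9 CPM in controls (median 26.9) and from 15.8 to 40.6 CPM in MMS (median 20.1). The MMS libraries fell on both sides, with MMS 6 and MMS 1 above all controls and 4 below them. Its log2 fold change of -0.12 (edgeR SE 0.20, adjusted p 0.851) became 0.099 without MMS 2 and MMS 4. For Ocln, encoding the tight junction protein occludin, the mean was 6.02 ± 1.08 CPM among controls and 4.72 ± 0.87 CPM among MMS pups (SD, n = 6), with a log2 fold change of -0.34 (SE 0.24). Emcn, the sialomucin endomucin of capillaries and veins, had -0.57 (SE 0.34) from 158 counts in all. Tjp1, the ZO-1 scaffold that anchors claudins to the cytoskeleton, had 0.33 (SE 0.24). It was highest in MMS 2 (22.8 CPM) and MMS 4 (18.6 CPM), and its log2 fold change was -0.10 without those libraries. Pecam1, which holds endothelial cells together at their borders, had 0.24 (SE 0.22), and -0.050 without those libraries. For Cdh5, the cadherin of endothelial adherens junctions, and Podxl, a sialomucin of the luminal surface, the values were -0.026 (SE 0.31) and -0.054 (SE 0.16). The sign of both depended on which libraries were left out. Among claudin-5, occludin and ZO-1, partners in the same junction, only the interval of Cldn5 excluded 0. On leaving out 1 library Tjp1 stayed above 0, at 0.14 to 0.44, while Ocln and Cldn5 stayed below it. Without both MMS 2 and MMS 4 all were below 0, with Tjp1 at -0.10, Ocln at -0.38 and Cldn5 at -0.51. In that fit the unadjusted p by edgeR was 0.657 for Tjp1, 0.203 for Ocln and 0.0013 for Cldn5. Differences between them were not tested.

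Of the receptors and secreted regulators, 6 of 7 had a log2 fold change below 0, none at an unadjusted p under 0.05, and their median was -0.28. Kdr encodes VEGF receptor 2, through which VEGF drives endothelial growth. Its levels were 46.8 to 67.1 CPM in controls (median 55.4) and 30.5 to 64.1 CPM in MMS (median 43.7), with 3 MMS libraries below all controls, MMS 4, MMS 5 and MMS 2. On the log2 scale MMS differed from control by -0.31 (SE 0.16, 95% interval -0.64 to 0.031; edgeR, adjusted p = 0.564), and -0.12 without MMS 2 and MMS 4.

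Egfl7, a protein that endothelial cells secrete around growing vessels, ran from 37.5 to 55.1 CPM in controls (median 46.0) and from 17.2 to 50.6 CPM in MMS (median 34.2). The 3 MMS libraries below all controls were MMS 4 at 17.2, MMS 2 at 21.8 and MMS 3 at 27.6 CPM. A log2 fold change of -0.46 resulted (SE 0.22; edgeR, adjusted p = 0.556), and -0.17 without MMS 2 and MMS 4. Exons of Egfl7 overlap those of Gm20532 and Mir126a on the same strand and of Agpat2 on the opposite strand, and the strand setting of the counting is not given, so its counts are uncertain. Eng, encoding endoglin, a co-receptor for transforming growth factor beta, had -0.33 (SE 0.20), and Ramp2, the partner of the adrenomedullin receptor, had -0.28 (SE 0.18), which was -0.076 without MMS 2 and MMS 4. Exons of Ramp2 overlap Vps25 on the same strand and those of Eng overlap Fpgs on the opposite strand, so these counts are uncertain too. Flt1, VEGF receptor 1, had -0.11 (SE 0.18), which was -0.24 without MMS 2 and MMS 4. Of the angiopoietin receptor pair, Tie1 had -0.10 (SE 0.30) and Tek 0.15 (SE 0.35). Tek was -0.42 without MMS 2 and MMS 4, its highest libraries at 7.79 and 7.27 CPM.

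The barrier transporters and their partners showed no shared direction, with 4 of 7 above 0, 3 below and none at an unadjusted p under 0.05. Bsg encodes basigin, a chaperone of lactate transporters that many cell types besides endothelium make, and was the most abundant member. Its control values lay close together, from 424 to 461 CPM (median 449), and its MMS values ran from 282 CPM in MMS 3 to 566 CPM in MMS 2 (median 424). The log2 fold change of MMS to control came to -0.095 (SE 0.12; edgeR, adjusted p = 0.806), and -0.24 without MMS 2 and MMS 4. The spread of Bsg was 13.3 CPM in controls and 92.4 CPM in MMS (SD, n = 6 per group).

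Itm2a, a membrane protein enriched in brain endothelium, ran from 29.7 to 42.0 CPM in controls (median 32.1) and from 31.2 to 57.8 CPM in MMS (median 36.9), with MMS 4 and MMS 2 above all controls. On the log2 scale its MMS level differed from control by 0.25 (SE 0.16; edgeR, adjusted p = 0.614), and 0.0055 without those libraries. Abcg2, an efflux pump that returns drugs to the blood, had 0.41 (SE 0.21; edgeR, adjusted p = 0.556), with 4 of 6 MMS libraries above all controls. Slc2a1, the glucose transporter GLUT1, had 0.23 (SE 0.16). Mfsd2a, which carries omega-3 lipids into brain and limits transcytosis, had 0.044 (SE 0.16) with a 95% interval of -0.28 to 0.37. The organic anion transporter Slco1a4 had -0.12 (SE 0.22) and the P-glycoprotein gene Abcb1a had -0.036 (SE 0.32), with an interval of -0.71 to 0.64. Abcb1a has a close copy, Abcb1b, and reads of such pairs can be split or dropped by the counting.

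**Figure D2:**
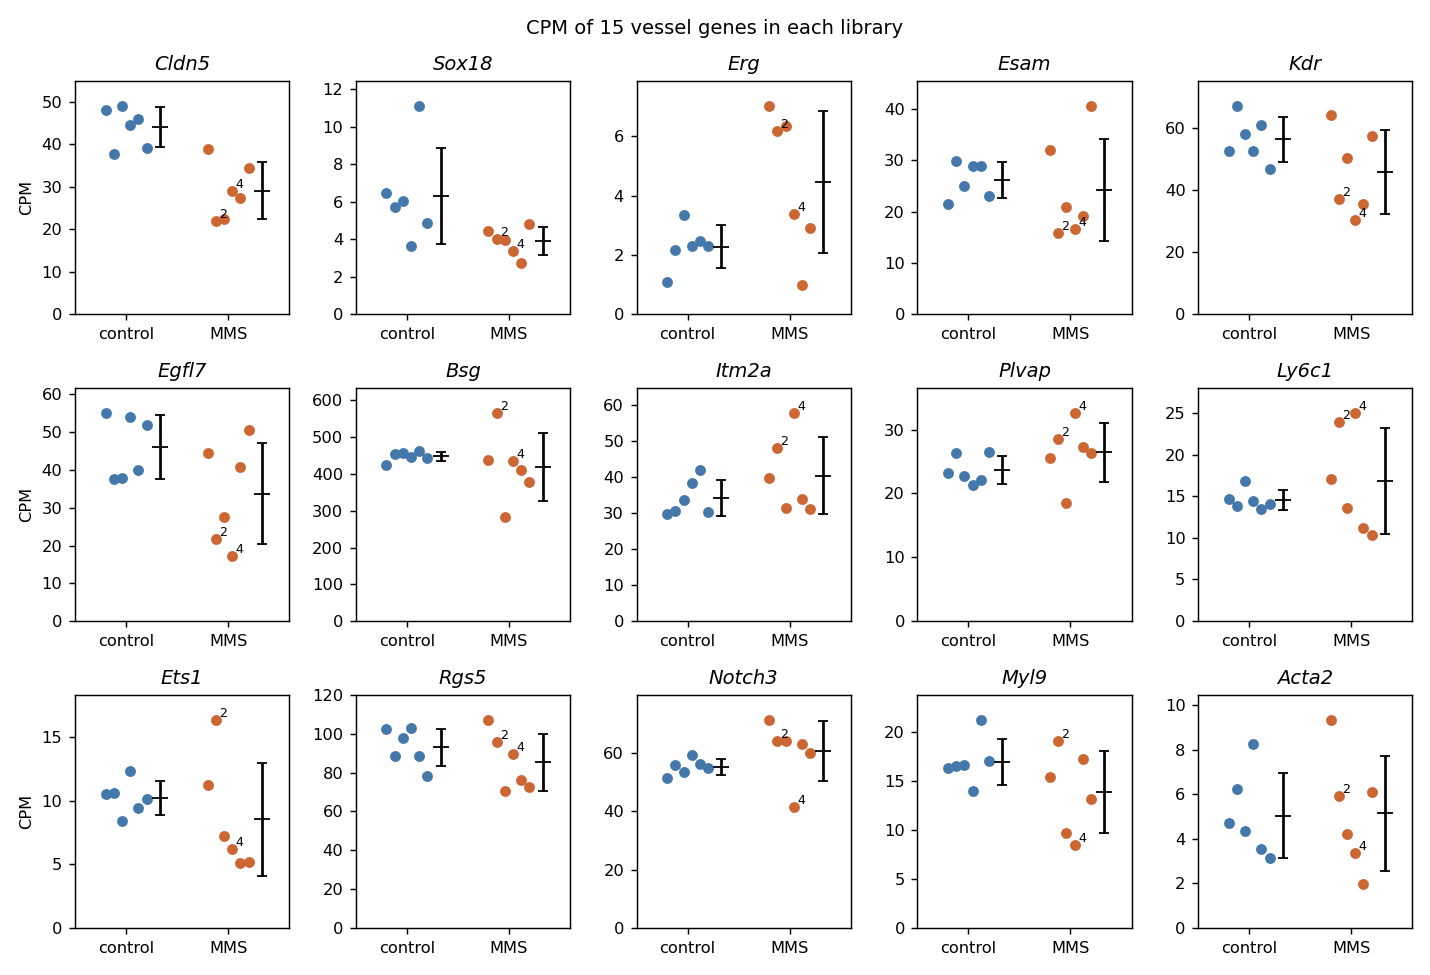
Level in CPM of 15 vessel genes in each of 6 control (blue) and 6 MMS (orange) libraries; bars beside the points give the mean ± SD and the digits mark MMS 2 and MMS 4. For Cldn5, 5 of 6 MMS points lie below all control points, while for Bsg and Ly6c1 the MMS points spread to both sides of closely spaced controls.

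Of the 4 endothelial surface and secreted markers, 3 were above 0. Plvap, the protein of the diaphragms of leaky vessels, ran from 21.3 to 26.5 CPM in controls (median 23.0) and from 18.5 to 32.6 CPM in MMS (median 26.8). MMS 4, MMS 2 and MMS 5 lay above all controls and MMS 3 below them. Its log2 fold change stood at 0.17 (SE 0.14; edgeR, adjusted p = 0.711). It was 0.10 without MMS 4 and 0.054 without both MMS 2 and MMS 4. Choroid plexus vessels carry Plvap too, and the part of choroid plexus in its values was not tested.

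Ly6c1, a surface antigen of brain endothelium, ran from 13.4 to 16.8 CPM in controls (median 14.3) and from 10.3 to 25.0 CPM in MMS (median 15.4), with 3 MMS libraries above all controls and 2 below. Its log2 fold change of 0.22 (edgeR SE 0.21, adjusted p 0.733) was -0.15 without MMS 2 and MMS 4. Ly6a, its neighbour in the Ly6 cluster on chromosome 15, had -0.22 (SE 0.28), which was -0.085 without MMS 5. Both belong to a family of close copies, so their counts are uncertain. Vwf, the von Willebrand factor of clotting, had 0.48 (SE 0.27), with 3 of 6 MMS libraries above all controls, and 0.22 without MMS 2 and MMS 4.

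The endothelial transcription factors held the remaining pair at an unadjusted p under 0.05, in opposite directions. Sox18 (chromosome 2, 181669836 to 181671640, minus strand), a SOX factor of growing vessels, ran from 3.67 to 11.1 CPM in controls (median 5.87) and from 2.75 to 4.83 CPM in MMS (median 3.98). Control 5 was the highest at 11.1 CPM, and 2 MMS libraries lay below all controls. A log2 fold change of -0.72 resulted (SE 0.29, 95% interval -1.32 to -0.13; edgeR, adjusted p = 0.543), and -0.46 without control 5, where the unadjusted p by edgeR was 0.109 and no longer under 0.05. It rested on 13 to 72 counts per library.

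Erg (chromosome 16, 95359169 to 95586593, minus strand), an ETS factor that keeps endothelial identity, ran from 1.08 to 3.36 CPM in controls (median 2.30) and from 0.98 to 7.02 CPM in MMS (median 4.77). The MMS libraries spread widely, with MMS 1, MMS 3 and MMS 2 at 7.02, 6.36 and 6.18 CPM and MMS 5 at 0.98 CPM, below all controls. In 4 of 6 the level was above all controls. The log2 fold change of MMS to control came to 0.93 (SE 0.40, 95% interval 0.096 to 1.76; edgeR, adjusted p = 0.543) from 5 to 30 counts per library, and ran from 0.75 to 1.16 on leaving out 1 library. The unadjusted p stayed under 0.05 in 8 of those 12 edgeR fits. It was 0.0858 without MMS 1, by edgeR, and 0.0537 without both MMS 2 and MMS 4, and Erg was not under 0.05 with limma-voom or with the replicate block.

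Ets1, a related factor, ran from 8.39 to 12.4 CPM in controls (median 10.3) and from 5.10 to 16.4 CPM in MMS (median 6.74). MMS 2 lay above all controls and 4 MMS libraries below them, and the log2 fold change was -0.26 (SE 0.26; adjusted p by edgeR 0.754), -0.53 without MMS 2. Fli1, the ETS factor next to Ets1 on chromosome 9, had 0.45 (SE 0.31), which was 0.23 without MMS 4. Sox17, a SOX factor of arteries, had 0.18 (SE 0.37), which was 0.042 without MMS 2. Within the ETS and the SOX pairs the log2 fold changes therefore lay on both sides of 0, and their differences were not tested.

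Pericyte genes lay closest to 0. Of the 6 tested, 2 were above and 4 below, between -0.12 and 0.14. Rgs5, a regulator of G protein signalling and the most abundant pericyte gene, ran from 78.4 to 103 CPM in controls (median 93.2) and from 70.6 to 107 CPM in MMS (median 82.7). In MMS relative to control the log2 fold change stood at -0.12 (SE 0.12, 95% interval -0.37 to 0.12; edgeR, adjusted p = 0.741). Notch3, the Notch receptor of mural cells, ran from 51.2 to 59.4 CPM in controls (median 55.2) and from 41.3 to 71.4 CPM in MMS (median 63.7). All MMS libraries but MMS 4 were above all controls. Its log2 fold change of 0.14 (edgeR SE 0.12, adjusted p 0.717) was 0.24 without MMS 4, with the interval of all 12 libraries at -0.12 to 0.39. Exons of Notch3 overlap a predicted gene on the opposite strand.

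Pdgfrb, the receptor by which endothelial PDGF-B recruits pericytes, ran from 4.35 to 9.10 CPM in controls and from 4.57 to 11.6 CPM in MMS, with a log2 fold change of -0.031 (SE 0.28). Vtn, encoding vitronectin, had -0.065 (SE 0.18), Abcc9, a subunit of potassium channels, -0.029 (SE 0.30), and Higd1b 0.015 (SE 0.33). The intervals of Pdgfrb, Abcc9 and Higd1b reached 0.5 log2 units or more on either side, so changes of that size could not be told from 0 in these 12 libraries. Anpep, an aminopeptidase of pericytes, had 0 to 10 counts per library and was not tested.

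Smooth muscle genes were few and low. Myl9, a myosin light chain, ran from 14.0 to 21.3 CPM in controls (median 16.6) and from 8.51 to 19.1 CPM in MMS (median 14.3), with MMS 4, MMS 3 and MMS 6 below all controls. On the log2 scale MMS differed from control by -0.30 (SE 0.20; edgeR, adjusted p = 0.626). It was -0.17 without MMS 4. Acta2, smooth muscle actin, ran from 3.16 to 8.25 CPM in controls (median 4.55) and from 1.96 to 9.36 CPM in MMS (median 5.07), with a log2 fold change of 0.029 (edgeR SE 0.34, adjusted p 0.982) that changed sign between fits. Tagln, a calponin-related protein of smooth muscle, was not tested. Its mean was 1.94 ± 0.50 CPM among controls and 1.71 ± 1.48 CPM among MMS pups (SD, n = 6), with MMS 1 at 4.21 CPM and 4 MMS libraries below all controls.

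The summed level of the 30 endothelial genes other than Bsg was 515 ± 25.9 CPM in controls and 488 ± 58.5 CPM in MMS (SD, n = 6 per group). It ran from 467 to 543 CPM in controls and from 405 CPM in MMS 5 to 577 CPM in MMS 1. For the 7 pericyte genes the sums were 203 ± 11.9 and 199 ± 22.9 CPM, and for the 3 smooth muscle genes 23.97 ± 1.64 and 20.7 ± 6.16 CPM. The MMS libraries thus lay on both sides of the controls in each vessel layer, with means that differed by less than the SD of the MMS group. The smooth muscle sum was 12.2 CPM in MMS 4 and 29.0 CPM in MMS 1.

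**Figure D3:**
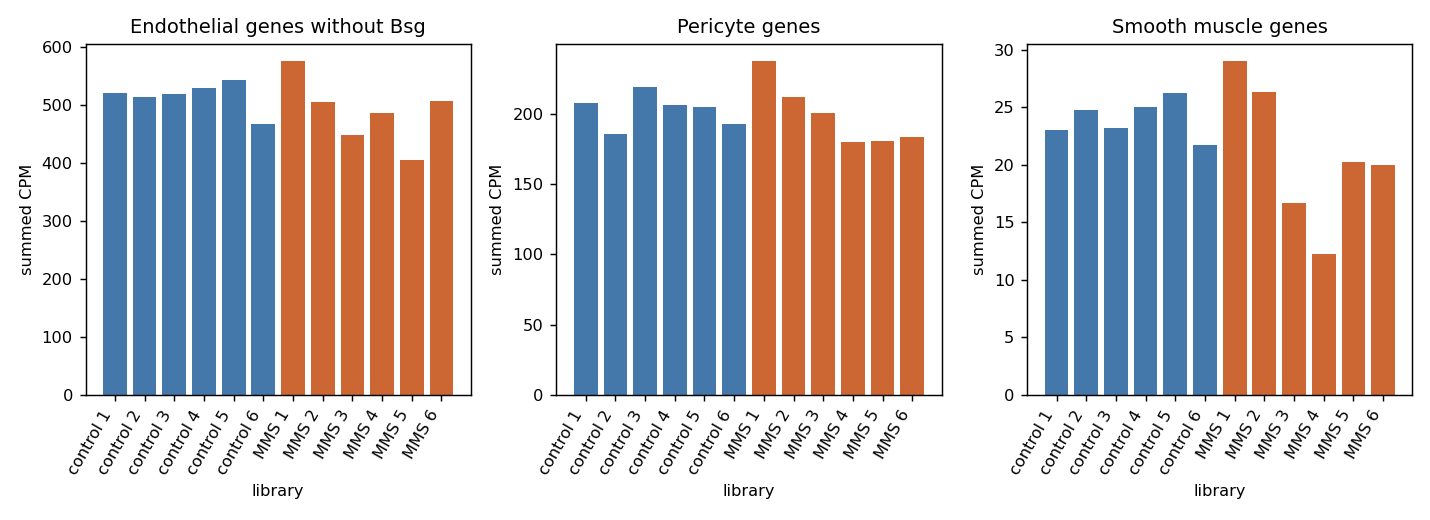
Summed CPM of 30 endothelial genes without Bsg, 7 pericyte genes and 3 smooth muscle genes in each library (bars from 0), controls in blue and MMS in orange. MMS 1 is the highest library in all 3 panels, and the lowest MMS bars are MMS 5 for endothelial, MMS 4 for pericyte and MMS 4 for smooth muscle genes.

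The spread between pups was larger in MMS than in control for 29 of 39 members (74.4%) on the log2 CPM scale, where the share over all genes was 72.9%. The median SD was 0.45 in MMS and 0.32 in control for members, and 0.33 and 0.23 over all genes. Without MMS 2 and MMS 4 it was larger in MMS for 28 members (71.8%), against 57.2% of all genes. In that comparison the SD in MMS came from fewer libraries than the SD in control, and the difference in share was not tested. MMS 2 was the highest of the 12 libraries for 9 members (23.1%, against 15.5% of all genes) and MMS 1 for 7 (17.9%, against 7.82%). MMS 5 was the lowest for 7 members (17.9%, against 6.86%) and MMS 4 for 6 (15.4%, against 12.5%).

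Endothelial genes did not move together in the 2 libraries that stood apart. Relative to the control mean, 8 members were more than 0.5 log2 units higher in both MMS 2 and MMS 4, namely Abcg2, Erg, Itm2a, Ly6c1, Pecam1, Tek, Tjp1 and Vwf (20.5%, against 8.84% of all genes). Another 6 were more than 0.5 lower in both, namely Cldn5, Egfl7, Esam, Kdr, Ramp2 and Sox18 (15.4%, against 11.8%). All 14 are endothelial genes, as are 31 of the 39 tested, and whether mural genes differ in this was not tested. Single mural genes passed 0.5 in 1 of the libraries, such as Myl9 at -0.95 and Higd1b at 0.67 in MMS 4. This grouping was made after the values were seen. Members also spread more than all genes among controls (median SD 0.32 against 0.23), so the fixed limit of 0.5 does not weigh both alike. The part of this spread in the shares was not tested. Over the last 500 bases of the longest transcript, the median GC content was 39% for the 8, with a range of 31.0% to 53.4%, and 49.3% for the 6, with a range of 35.0% to 55.0%. Over all genes tested its median was 39.6% for those higher in both libraries and 47.0% for those lower, so the medians of the members were ordered as those of all genes. The part of GC content in the member values was not tested. With both libraries left out, 0 members passed the threshold. At an unadjusted p under 0.05 by edgeR Notch3 was then higher in MMS (log2 fold change 0.24). Cldn5 (-0.51), Sox18 (-0.69) and Bsg (-0.24) were lower. In that fit 40 members were tested, and 674 of all 13407 genes were at such a p in either direction. The median of the members was -0.082.

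**Figure D4:**
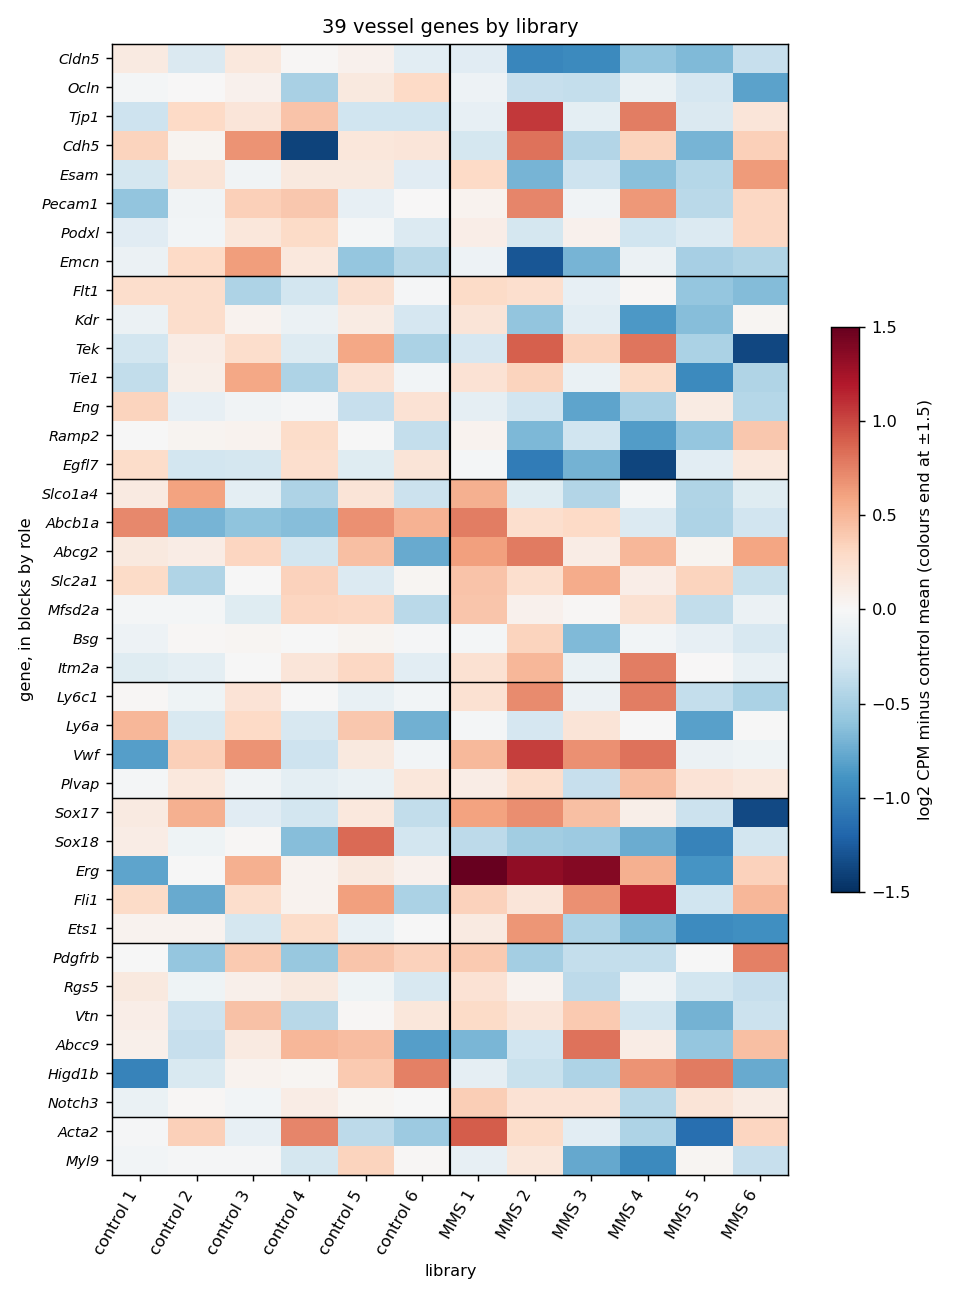
Log2 CPM of the 39 tested vessel genes in each library minus the control mean of the gene, in blocks by role (red higher, blue lower, colours end at ±1.5). MMS 2 and MMS 4 show both red rows (Tjp1, Pecam1, Tek, Vwf) and blue rows (Cldn5, Egfl7, Kdr, Ramp2) within the endothelial blocks.

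A further list of vessel pathway genes held 54 genes, of which 45 were tested. None passed the threshold in edgeR (lowest adjusted p 0.543). At an unadjusted p under 0.05, 4 were lower in MMS and 0 higher (8.89%, against 9.08% of all genes). A log2 fold change below 0 was measured for 27 of 45 (60%, against 49.9% of all genes), with a median of -0.025. Foxf2, a forkhead factor of brain pericytes, averaged 2.79 ± 0.25 CPM among controls and 1.33 ± 0.71 CPM among MMS pups (SD, n = 6), with 5 of 6 MMS libraries below all controls. For it the log2 fold change came to -1.02 (SE 0.37) from 119 counts in all. Notch1, a Notch receptor that endothelial and neural progenitor cells share, had -0.45 (SE 0.17), Cd34, a sialomucin of endothelium, -0.43 (SE 0.18), and Wnt7b, a neural Wnt ligand that induces the barrier, -0.30 (SE 0.13). Each of these 4 had an edgeR adjusted p of 0.543.

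By role, all 8 tested Wnt barrier genes had a log2 fold change below 0, where 49.9% of all genes did. Their values ran from -0.44 to -0.025 with a median of -0.26, and 1 of them, Wnt7b, was at an unadjusted p under 0.05. The value nearest 0 was that of Wnt7a (SE 0.21), for which 2 MMS libraries lay above all controls and 1 below them. The 8 tested genes were the ligands Wnt7a, Wnt7b and Ndp, the receptor parts Lrp6, Tspan12 and Gpr124, and the pathway readouts Lef1 and Axin2. Several of these, among them the neural ligand Wnt7b, are made by cells outside the vessel wall, so their values are not those of vessel cells alone. Of 10 ligands and co-receptors of VEGF, angiopoietin, PDGF and apelin, 7 were above 0. Vegfa had 0.23 (SE 0.15), Pdgfb 0.22 (SE 0.21) and Aplnr, the apelin receptor, -0.60 (SE 0.34). Of 6 Notch pathway genes 3 were above and 3 below 0, and of the 5 transcription factors 3 were below.

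Markers of other cell types were set beside these values, since a whole dissected tissue holds them all. Of the microglia and macrophage markers 3 of 7 were above 0, namely Tmem119 (log2 fold change 0.49), Aif1 (0.49) and Csf1r (0.11). Sums over all markers of this type were 144 to 182 CPM in controls and 120 to 163 CPM in MMS. Astrocyte markers had 2 of 5 above 0 and sums of 877 to 1124 and 855 to 1178 CPM. Lymphatic endothelial markers, which neural cells also carry, had 1 of 3 above 0 and sums of 164 to 209 and 96.98 to 205 CPM, lowest in MMS 2 and MMS 4. The 5 markers with the smallest unadjusted p were all lower in MMS and all had an edgeR adjusted p of 0.543. They were Ttr (log2 fold change -6.58, and -1.63 without control 3), the microglial receptor Cx3cr1 (-0.37), the beta globin Hbb-bt (-0.51), the cilia gene Hydin (-1.23) and Mrc1, a receptor of macrophages beside vessels (-0.80). Their part in the vessel gene values was not tested.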

How the data were processed

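Libraries were grouped by sample title. Per the study's methods they were made with the QuantSeq 3' mRNA kit, run on an Ion Proton with 12 libraries on 1 chip and aligned to mm10 in Torrent Suite, and the authors deposited raw counts per gene, unpooled and not normalised. The sources used here do not name the counting tool, annotation or strand setting. Exons of 9 of the 41 members overlap another gene in GENCODE M21. Counts were tested with edgeR 4.0.16 (R 4.3.3; quasi-likelihood, robust, TMM scaling, default filter with a minimum count of 10 and total of 15), two-sided, with Benjamini-Hochberg adjustment over 13104 genes. CPM used the same scaling, and log2 CPM a prior count of 2. Alternatives were DESeq2 1.42.0, limma-voom 3.58.1, RLE scaling, no filter, a replicate block, and libraries left out. In counts simulated for this comparison over 13104 genes, the test recovered 70 of 99 changes of 2-fold and 96 of 98 of 4-fold that passed the filter. The simulation gave each gene the same spread in both groups and changed 200 genes. In the data the spread was larger in MMS for 72.9% of all genes, so these rates may not hold for them. The 27 rows named as calendar dates (0.175% of counts) were kept as unnamed rows. Pairs of libraries within a group differed by more than sampling noise (chi-square per degree of freedom 4.04 to 31.5 over 30 pairs). Nothing ties a library to a litter, although each litter gave pups to both groups, so p-values measure only the spread between these pups. Promoter windows came from RefSeq.

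Full values were given for members at an unadjusted p under 0.05 (at most 12) and for the 2 most abundant tested members of each role. Pathway genes and cell markers were named at an unadjusted p under 0.05 (at most 5 each), and any other gene was picked with its values known. The members and lists were chosen with earlier results of these data known, so no test was made on a list as a whole.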

Additional observations from a re-analysis of the deposited data

Results flagged for a closer look

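Dixon's criterion was applied to 36 sets of 6 values, those of 15 vessel genes and 3 summed levels within either group. In 1 set a single library lay apart from the remaining 5, where chance alone gives about 1.8. It was Ly6c1 in control 3, at 16.8 CPM where the other controls lay between 13.4 and 14.6 CPM.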

How the results depend on the processing

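No member and no vessel pathway gene passed the threshold under any of the 6 alternative settings or the 12 fits that left out 1 library. Over all genes the number past it was 7 with DESeq2, 1 without a count filter, 1 with the replicate block and 5 without both MMS 2 and MMS 4, and 0 to 1 on leaving out 1 library; the cause was not tested. At an unadjusted p under 0.05 the members higher in MMS numbered 2 with DESeq2, 0 with limma-voom, 2 without a filter, 0 with the replicate block and 0 to 3 on leaving out 1 library. The members lower numbered 4 with limma-voom and 1 to 5 on leaving out 1 library. Over all genes the number at that p, in either direction, was 1190 in the main edgeR fit, 1294 with DESeq2 and 1354 with limma-voom. It was 2039 of 23550 without a filter, 1224 with the replicate block and 700 to 1804 on leaving out 1 library. The median of the members ran from -0.11 to 0.056 on leaving out 1 library.

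Signs near 0 were not stable. Without both MMS 2 and MMS 4 the log2 fold change was -0.10 for Tjp1, 0.099 for Esam, -0.050 for Pecam1, 0.060 for Podxl, -0.42 for Tek, 0.015 for Abcb1a, -0.15 for Ly6c1, 0.18 for Pdgfrb, 0.031 for Abcc9 and -0.082 for Higd1b. With limma-voom it was -0.0061 for Tek, 0.0088 for Abcb1a and -0.071 for Acta2, and with the replicate block 0.035 for Abcb1a and -0.045 for Acta2. On leaving out 1 library it ran from -0.21 to 0.13 for Cdh5, -0.13 to 0.0078 for Podxl, -0.037 to 0.32 for Tek, -0.19 to 0.059 for Tie1, -0.28 to 0.014 for Slco1a4, -0.22 to 0.13 for Abcb1a, -0.028 to 0.13 for Mfsd2a, -0.21 to 0.070 for Pdgfrb, -0.16 to 0.056 for Vtn, -0.24 to 0.10 for Abcc9, -0.18 to 0.21 for Higd1b and -0.23 to 0.22 for Acta2. Whether the replicate numbers pair littermates is not in the labels. Same-numbered libraries correlated at -0.048 to 0.12 in their deviations, and 2 of 6 correlated best with their own number. Such correlations in whole tissue cannot decide whether the numbers are pairs. The block moved no member past the threshold.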
